A study of Mus musculus with 14 samples.

Results

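Voltage-gated calcium channels open when the membrane of a muscle, nerve or pacemaker cell depolarises and let calcium enter the cell. Each high-voltage-activated channel has a pore-forming alpha1 subunit, which carries the voltage sensor, an intracellular beta subunit and an extracellular alpha2delta subunit, both of which help to bring the pore to the membrane and set how it opens. In gut smooth muscle the L-type pore made by Cacna1c is the main route of calcium entry that triggers contraction. T-type pores, among them those made by Cacna1g and Cacna1h, open at more negative voltages and do not depend on the accessory subunits in the same way.

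The 9 genes described here were taken as a fixed list: the L-type pores Cacna1c and Cacna1d, the R-type pore Cacna1e, the T-type pores Cacna1g and Cacna1h, the beta subunits Cacnb2 and Cacnb3, and the alpha2delta subunits Cacna2d1 and Cacna2d3. They are 9 of 40481 genes in the bulk count table, all 9 passed the filter on low counts, and they are compared with 17 other subunit genes of the same channels where that is useful. The libraries came from the muscularis (the gut's muscle layers, together with the nerves and pacemaker cells between them) of C57BL/6 mice. Bulk RNA-seq covered 3 libraries each of WT colon, KO colon, WT jejunum and KO jejunum, and single nuclei were profiled in colon, 1 library for WT and 1 for KO. WT stands for the genotype label "WT mTmG", a reporter strain with membrane-bound fluorescent proteins, and KO for "Carmn iKO", a knockout of the smooth muscle long non-coding RNA Carmn. Whether the KO mice carry the reporter, how Carmn was deleted, in which cells, and the mice's age and treatment are not given in the sources read here. Libraries carry tags (m1, t1, t4, t6, t7), used here as replicate names, and nothing in the labels says that replicates came from separate mice, so p-values measure the spread between these libraries.

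Total counts ran from 24254905 to 44315104 per bulk library. Carmn itself stood at 171 to 351 CPM (counts per 1000000, on TMM-scaled library sizes) in WT colon and 304 to 718 in the colon libraries labelled KO, and at 206 to 326 and 817 to 996 in jejunum. KO minus WT was 0.94 on the log2 scale in colon (edgeR adjusted p = 0.234) and 1.82 in jejunum (adjusted p = 0.0646), and which exons were deleted is not given. The bulk counts of the targeted gene thus went against the KO label, so KO below always means a library that carries this label. In smooth muscle nuclei Carmn was lower in the library labelled KO, at 6.23 UMIs (unique molecular identifiers) per 10000 against 16.7. The muscle identity of the tissue was plain in all 12 bulk libraries, with 10 smooth muscle markers summing to 34878 to 93637 CPM. KO colon t4 and KO jejunum m1 stood apart: 8 fibroblast markers summed to 12825 and 7349 CPM there against 2611 to 5782 in the other 10 libraries, and 8 macrophage markers to 1816 and 2107 against 231 to 1167. Their smooth muscle sums were the opposite ends of the range, 34878 in KO colon t4 and 93637 in KO jejunum m1. In bulk tissue, fewer cells of a type and less RNA per cell cannot be told apart.

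RefSeq promoter windows of GRCm38.p6 (250 bases before to 50 after a start site) were found for 7 of the 9 genes, 12 windows in all. Listed accessible regions of the nuclei overlapped 2 of these windows, at Cacnb2 and Cacnb3, and Cacna2d3 is shown beside them because its bulk level followed that of Cacnb2 from library to library. Cacna1e followed Cacnb2 more closely (Pearson's r of log2 CPM 0.94, against 0.90 for Cacna2d3). Its window, which held 0 GC boxes, is not printed. The 250 bases before each start site follow, 5′ to 3′ on the gene's strand, with GC boxes (GGGCGG or CCGCCC, the binding sequence of Sp1-type factors on either strand) in capitals.
Cacnb2, plus strand, chr2:14604056-14604305: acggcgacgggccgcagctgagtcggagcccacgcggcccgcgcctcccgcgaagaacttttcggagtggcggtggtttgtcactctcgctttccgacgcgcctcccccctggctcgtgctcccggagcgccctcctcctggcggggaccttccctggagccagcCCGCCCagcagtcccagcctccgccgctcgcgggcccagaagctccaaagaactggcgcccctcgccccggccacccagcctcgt
Cacnb3, plus strand, chr15:98634517-98634766: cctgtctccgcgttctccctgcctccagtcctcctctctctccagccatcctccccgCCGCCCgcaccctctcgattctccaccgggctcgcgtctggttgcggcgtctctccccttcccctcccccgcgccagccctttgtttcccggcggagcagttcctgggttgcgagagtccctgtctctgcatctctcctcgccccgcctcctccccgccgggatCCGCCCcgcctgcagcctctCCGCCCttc
Cacna2d3, minus strand, chr14:29721865-29722114: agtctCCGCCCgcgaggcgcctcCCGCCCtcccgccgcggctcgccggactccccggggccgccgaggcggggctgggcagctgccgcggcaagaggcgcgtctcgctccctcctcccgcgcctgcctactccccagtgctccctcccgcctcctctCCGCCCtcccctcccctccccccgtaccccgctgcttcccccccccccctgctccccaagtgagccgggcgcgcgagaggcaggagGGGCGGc
The Cacnb2 stretch, which overlaps a non-coding exon of another Cacnb2 transcript and the pseudogene Gm10849 on the other strand, held 1 GC box, the Cacnb3 stretch 3 and the Cacna2d3 stretch 4. Over the whole 300 base windows, a GC box was in 7 of the 12 windows of these genes and in 35.7% of all 32851 RefSeq promoters. The CArG box, the sequence bound by serum response factor at many contractile genes, was searched on both strands and was in 0 of the 12 windows and in 1.63% of all promoters. The TATAAA sequence was in 1 of the 12 windows, at the upstream start of Cacna1d, and in 13.6% of all promoters. These are matches of letters in a window and say nothing of whether a factor binds there.

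Cacna1c makes the pore of the L-type channel Cav1.2. The gene (ENSMUSG00000051331) lies on chromosome 6 at 118587240 to 119196418 of GRCm38, on the minus strand. It had 397, 279 and 512 CPM in WT colon (t1, t6, t7) and 536, 312 and 484 in KO colon (m1, t4, t6). In jejunum it had 337, 377 and 430 CPM in WT (t1, t6, t7) and 360, 474 and 430 in KO (m1, t1, t4). The groups overlapped in both tissues and the lowest value of each tissue's KO group was in the library that stood apart. KO minus WT was 0.17 on the log2 scale in colon (SE 0.26, 95% interval -0.41 to 0.74, edgeR quasi-likelihood fit, Benjamini-Hochberg adjusted p = 0.836) and 0.14 in jejunum (SE 0.26, -0.43 to 0.72, adjusted p = 0.859). The value of WT colon minus WT jejunum was 0.05 (SE 0.26, -0.52 to 0.62, adjusted p = 0.978). No difference of Cacna1c between the groups was detected at this precision.

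Cacna1d makes the pore of the L-type channel Cav1.3, which opens at less depolarised voltages and serves pacemaking in several tissues. The gene (ENSMUSG00000015968) lies on chromosome 14 at 30039939 to 30491455, minus strand. It was the one member that passed the threshold in any bulk comparison, and it was higher in colon. WT colon had 72.4 (t1), 55.9 (t6) and 97.1 CPM (t7), and WT jejunum had 24.6 (t1), 29.5 (t6) and 31.5 (t7). The lowest colon library was above the highest jejunum library. WT colon minus WT jejunum was 1.397 on the log2 scale (SE 0.20, 95% interval 0.96 to 1.84, edgeR adjusted p = 0.00838). In that comparison 1.56% of all 20886 genes tested were called, against 1 of the 9 members. The call was lost without WT jejunum t1 (1.24, adjusted p = 0.0637) and held without each other library (adjusted p = 0.00508 to 0.0476).

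The tissue difference of Cacna1d was also present in the libraries labelled KO, which are other libraries, a comparison added after the values were seen. KO colon had 104.9 (m1), 119.5 (t4) and 91.4 CPM (t6) and KO jejunum 32.9 (m1), 32.1 (t1) and 31.4 (t4), with no overlap. The log2 difference was 1.71 (SE 0.20, 95% interval 1.27 to 2.16, edgeR adjusted p = 0.00408), and 1.29% of all genes were called in this comparison, against 1 of 9 members. It stayed past the threshold without KO colon t4 (1.61, adjusted p = 0.00683) and without KO jejunum m1 (1.73, adjusted p = 0.00772), but not in a fit of the 6 libraries alone (1.69, adjusted p = 0.0630). Between genotypes in colon Cacna1d had a log2 difference of 0.49 (SE 0.20, edgeR adjusted p = 0.286) with overlapping groups, and in jejunum 0.17 (SE 0.20, adjusted p = 0.753). Exons of Cacna1d overlap those of Chdh on the other strand, and whether counting used strand is not given, so its counts are uncertain to that extent.

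Cacna1e makes the pore of the R-type channel Cav2.3, best known from neurons. The gene (ENSMUSG00000004110) lies on chromosome 1 at 154390731 to 154884501, minus strand. WT jejunum had 277 (t1), 291 (t6) and 374 CPM (t7) and WT colon 111 (t1), 66 (t6) and 105.0 (t7), so every jejunum library was above every colon library. The colon minus jejunum difference was -1.74 on the log2 scale (SE 0.54, 95% interval -2.93 to -0.55) and missed the threshold (edgeR adjusted p = 0.167). It passed with DESeq2 (adjusted p = 0.0194), which called 5.58% of all genes there, and in a fit of the 6 libraries alone (adjusted p = 0.00789), and in none of the other alternatives (adjusted p = 0.0596 to 0.47). KO colon had 136 (m1), 32.6 (t4) and 110 CPM (t6), and KO jejunum 90.4 (m1), 345 (t1) and 268 (t4). The lowest value of each KO group was in the library with the high fibroblast and macrophage sums, whose part in the result was not tested. KO minus WT was -0.02 in colon (SE 0.52, adjusted p = 0.993) and -0.42 in jejunum (SE 0.53, adjusted p = 0.777). Without KO colon t4 the colon value was 0.39, and without KO jejunum m1 the jejunum value was -0.06.

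Of the T-type pores, Cacna1g (ENSMUSG00000020866, chromosome 11, 94408391 to 94474198, minus strand) had 40.8 (m1), 54.1 (t1) and 48.2 CPM (t4) in KO jejunum against 31.6 (t1), 22.8 (t6) and 23.6 (t7) in WT jejunum. The groups did not overlap. The log2 difference was 0.88 (SE 0.38, 95% interval 0.05 to 1.70) and missed the threshold (edgeR adjusted p = 0.349). In colon WT t6 was low at 14.3 CPM, beside 44.2 (t1) and 55.2 (t7), and the KO libraries lay between at 34.7 to 45.5 (log2 difference 0.11, SE 0.37, edgeR adjusted p = 0.932). Cacna1h, whose product Cav3.2 is the other T-type pore, is on chromosome 17 at 25374285 to 25433783, minus strand (ENSMUSG00000024112). It ranged from 254 to 515 CPM in WT colon, 245 to 466 in KO colon, 265 to 369 in WT jejunum and 265 to 290 in KO jejunum. Its KO minus WT values were -0.13 in colon (SE 0.29, adjusted p = 0.892) and -0.26 in jejunum (SE 0.29, adjusted p = 0.735). Exons of Cacna1h overlap those of Tpsg1 on the other strand.

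Of the beta subunits, Cacnb2 (ENSMUSG00000057914, chromosome 2, 14603088 to 14987908, plus strand) had 56.6 (t1), 42.3 (t6) and 67.6 CPM (t7) in WT colon and 87.5 (t1), 85.1 (t6) and 105 (t7) in WT jejunum. The groups did not overlap, with a colon minus jejunum difference of -0.74 (SE 0.37, edgeR adjusted p = 0.430). In the libraries labelled KO it had 54.3 (m1), 23.9 (t4) and 44.2 CPM (t6) in colon and 34.3 (m1), 85.3 (t1) and 91.0 (t4) in jejunum, again lowest in the libraries that stood apart. KO minus WT was -0.44 in colon (SE 0.37, adjusted p = 0.632) and -0.40 in jejunum (SE 0.37, adjusted p = 0.679), and -0.17 and -0.10 without KO colon t4 and KO jejunum m1 respectively. The gene models Gm10848, Gm10849 and Gm13269 on the other strand overlap its exons. Cacnb3 (ENSMUSG00000003352, chromosome 15, 98630840 to 98644529, plus strand) ranged from 71.7 CPM in KO colon t4 to 119.6 in WT colon t7. In jejunum the KO values, 80.3 to 89.1, lay below the WT values, 90.2 to 109.6 (log2 difference -0.29, SE 0.19, edgeR adjusted p = 0.553). In colon the value was -0.13 (SE 0.19, adjusted p = 0.829).

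Cacna2d1, the alpha2delta subunit that binds gabapentin, lies on chromosome 5 at 15934691 to 16374511, plus strand (ENSMUSG00000040118). WT colon had 149 (t1), 143 (t6) and 186 CPM (t7), and KO colon 121 (m1), 88.3 (t4) and 95.3 (t6). All 3 KO values were below all 3 WT values. The log2 difference was -0.65 (SE 0.18, 95% interval -1.04 to -0.26), with an edgeR adjusted p of 0.144. DESeq2 put it past the threshold (-0.64, adjusted p = 0.0233), and over the other alternatives its adjusted p ran from 0.0799 to 0.348. Without KO colon t4 it was -0.56 (adjusted p = 0.226). Smooth muscle markers were lower in KO colon too, in 10 of 10 cases with 0 called (median log2 difference -0.61). Their sums were 34878 to 47530 CPM against 51782 to 75568 in WT. Within KO colon the sum was highest in t6 and Cacna2d1 in m1. Other markers lower in KO colon were 6 of 7 for interstitial cells of Cajal, 6 of 7 epithelial, 4 of 5 mesothelial and 5 of 5 adipocyte. For fibroblasts 4 of 8 were lower, for neurons 4 of 10, for macrophages 2 of 8 and for blood endothelium 0 of 8. The part of cell content in the result was not tested. In jejunum Cacna2d1 had 144 (m1), 115 (t1) and 114 CPM (t4) in KO and 153 (t1), 135 (t6) and 152 (t7) in WT, a difference of -0.24 (SE 0.18, adjusted p = 0.602). The difference between the tissues' changes was -0.42 (SE 0.25, adjusted p = 0.941).

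Cacna2d3 (ENSMUSG00000021991, chromosome 14, 28904943 to 29721864, minus strand), the other alpha2delta subunit among the 9 genes, was the least abundant member per length in colon. WT jejunum had 26.7 (t1), 26.1 (t6) and 37.3 CPM (t7), above WT colon at 7.69 (t1), 8.93 (t6) and 14.5 (t7). KO jejunum had 7.36 (m1), 20.96 (t1) and 15.8 (t4), below every WT jejunum library, and KO colon 17.8 (m1), 3.47 (t4) and 14.0 (t6). The colon minus jejunum difference in WT was -1.54 (SE 0.54, edgeR adjusted p = 0.219, and 0.0237 in a fit of the 6 libraries alone). KO minus WT in jejunum was -1.03 (SE 0.53, 95% interval -2.19 to 0.14, adjusted p = 0.437), and -0.74 without KO jejunum m1. In colon it was 0.19 (SE 0.53, adjusted p = 0.917), and 0.62 without KO colon t4.

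**Figure D1:**
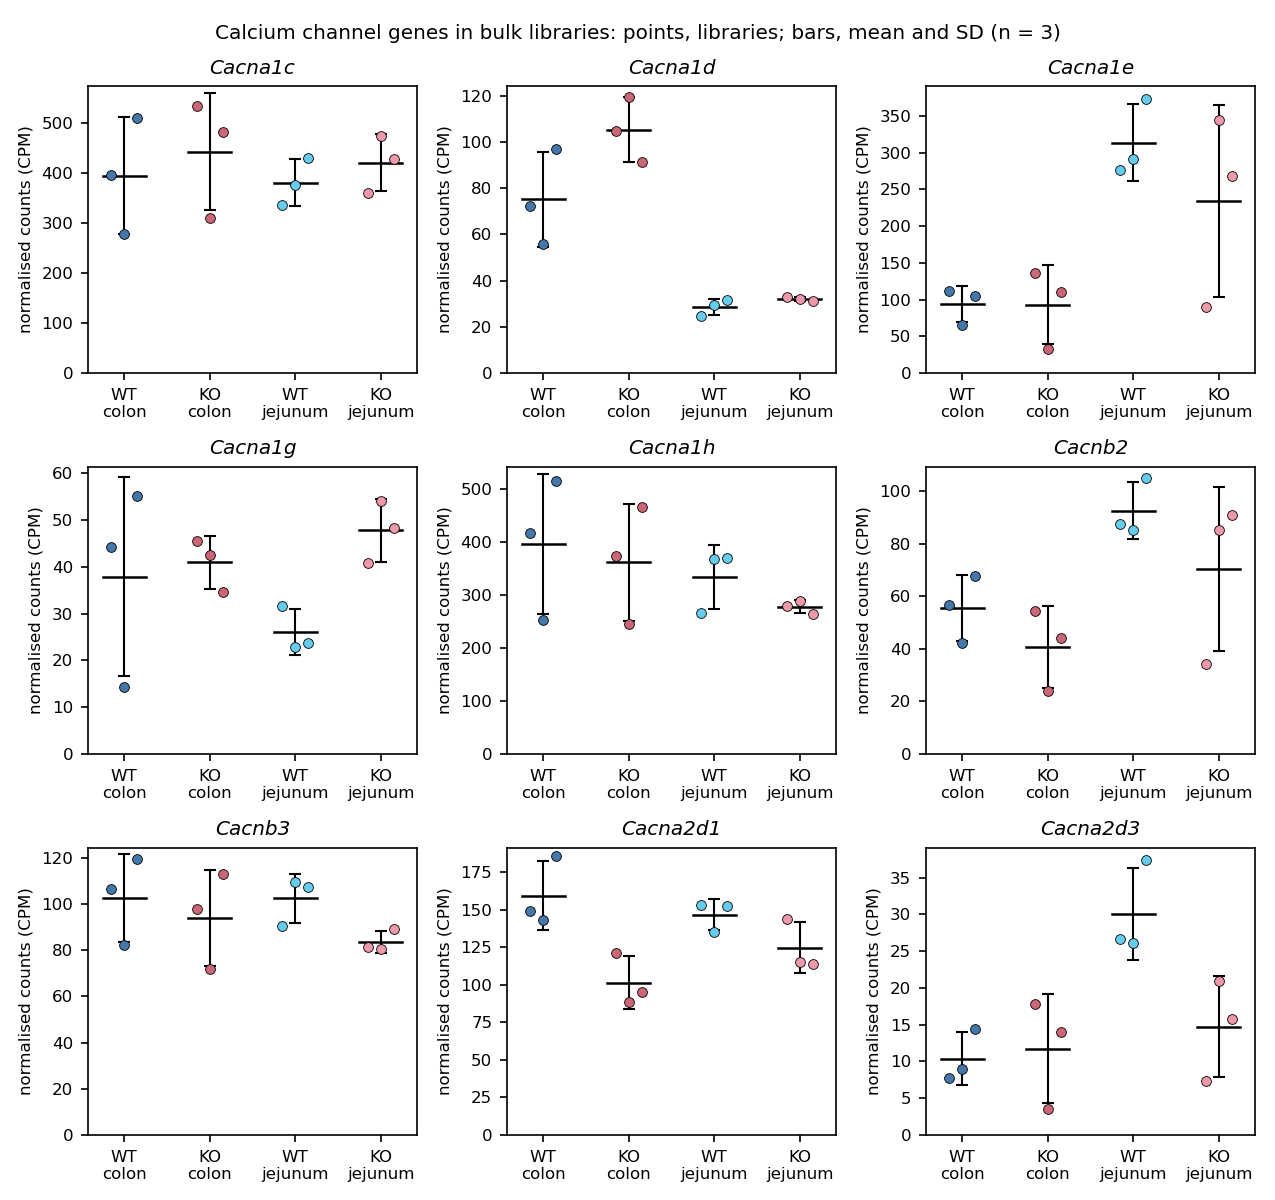
Normalised read counts (CPM, linear axes from 0) of the 9 genes in the 12 bulk libraries, 1 point per library in the order of its tag, with mean and SD (n = 3) per group. Cacna1d is higher in all 6 colon libraries than in all 6 jejunum libraries, and Cacna1e, Cacnb2 and Cacna2d3 are lowest in KO colon t4 and KO jejunum m1 within their groups.

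Between genotypes, 0 of the 9 genes passed the threshold in either tissue. In colon 0.388% of all genes were called by edgeR, 2 of the 9 had an unadjusted p below 0.05 (14.5% of all genes) and DESeq2 called 1 (4.62% of all genes). In jejunum 0.215% of all genes were called, 1 of the 9 had an unadjusted p below 0.05 (13.2% of all genes) and DESeq2 called 0 (3.87% of all genes). The ranges of KO and WT libraries were apart for 1 of 9 members in colon and 3 of 9 in jejunum, beside 19.2% and 22.2% of all genes tested. The difference between the tissues' changes was called for 0% of all genes and 0 of the 9 (0 at an unadjusted p below 0.05 and 0 by DESeq2, where 4.16% and 0.178% of all genes were). The median log2 difference over the 9 was -0.02 in colon and -0.26 in jejunum, beside 0.00 and 0.02 over all genes tested. Between tissues, the groups did not overlap for 4 of 9 members in WT and 1 of 9 in KO, against 22.9% and 19.6% of all genes. The exact permutation test of 3 libraries against 3 cannot give a two-sided p below 0.1.

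**Figure D2:**
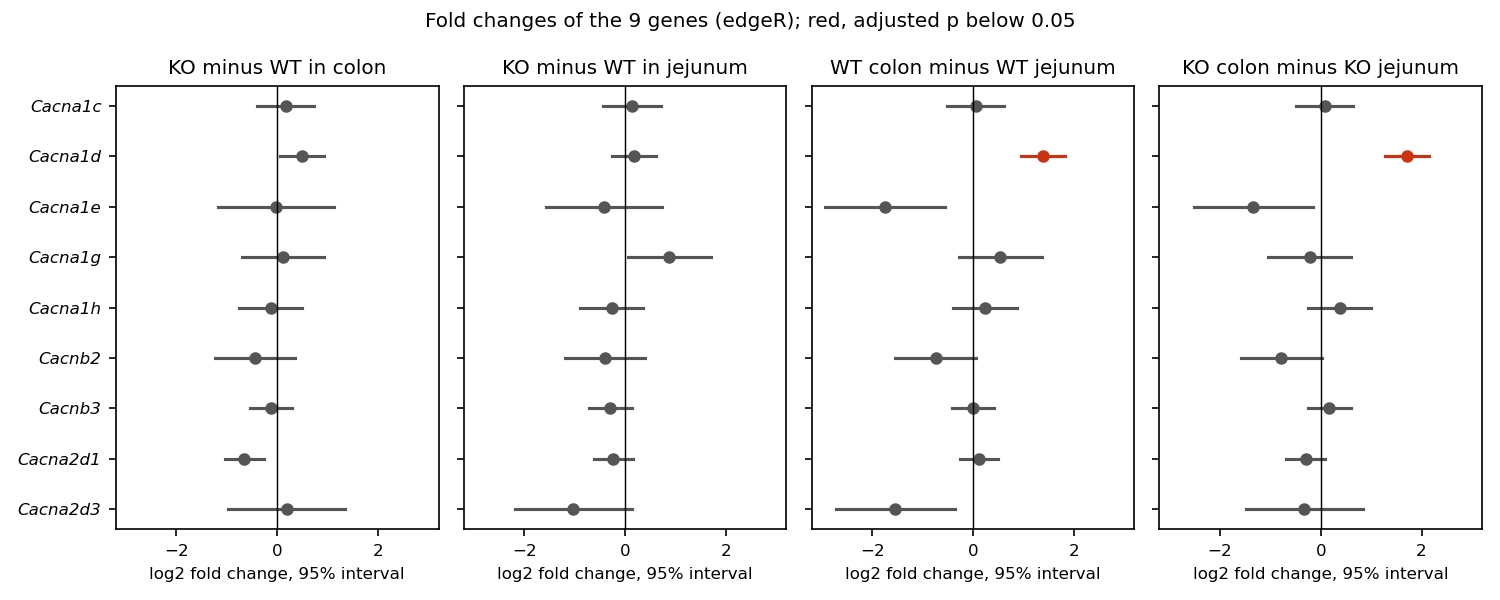
Log2 fold changes with 95% intervals (edgeR, all 12 libraries in 1 fit) for the 9 genes in 4 comparisons, with red for an adjusted p below 0.05. Cacna1d is the one gene in red, at 1.397 in WT and 1.71 in KO for colon minus jejunum.

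Set on a per-length scale (RPKM over the annotated exon length), Cacna1h, Cacnb3 and Cacna1c had the highest levels in every group. In WT colon the mean levels were 40.5 for Cacna1h, 25.6 for Cacnb3, 18.7 for Cacna1c and 12.9 RPKM for Cacna2d1, and each of these overlapped its neighbour in the order across the 3 libraries. There followed, below Cacna2d1 with no overlap, Cacna1d at 5.95, Cacnb2 at 4.20, Cacna1g at 3.74 and Cacna1e at 3.73 RPKM, and last Cacna2d3 at 1.19. In WT jejunum Cacna1e came next after the same first 3 genes, at 12.4 RPKM, and overlapped Cacna2d1 at 11.8. Cacna1d was last there, at 2.26, and overlapped Cacna1g at 2.56. KO colon kept the same first 3 genes, followed by Cacna1d at 8.34 RPKM, which overlapped Cacna2d1 at 8.18. Exon length joins all annotated isoforms, so the order depends on which isoforms these tissues use.

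Cacna1e, Cacnb2 and Cacna2d3 followed one another from library to library. Over the 12 libraries, Pearson's r of log2 CPM was 0.94 for Cacna1e with Cacnb2, 0.91 for Cacna1e with Cacna2d3 and 0.90 for Cacnb2 with Cacna2d3. Cacna1h and Cacnb3 had r = 0.92, and Cacna1d and Cacna1e had the lowest value of the 36 pairs, -0.75. These points share tissue, genotype, scaling and the libraries that stood apart, so they are given as a description. Among 14280 genes whose average log2 CPM reached 1, the 3 most like Cacna1e were Kl (r = 0.98), Wasf1 (0.96) and Cux2 (0.96), and those most like Cacna1d were Ccdc6 (0.95), Bin1 (0.94) and Csmd1 (0.94). Cacna1c was most like Zfp689 (0.94), Lamb2 (0.89) and Ppp6r2 (0.89), and Cacnb2 most like Twsg1 (0.97), Pde3a (0.97) and Inpp4a (0.96). For Cacna2d3 they were Tacc2 (0.97), Plscr4 (0.96) and Smarca2 (0.94), and for Cacna2d1 Kdm1b (0.94), Gulp1 (0.93) and Alkbh8 (0.93). Cacna1h was most like Nfix (0.94), Nsmf (0.94) and Tead3 (0.93), Cacna1g like Med24 (0.91), Tulp3 (0.87) and Spire1 (0.84), and Cacnb3 like Cacna1h (0.92), Lrfn3 (0.91) and Mvb12b (0.91).

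Nuclei of the colon gave the level of each gene by cell type. After filtering, 2823 WT and 1685 KO nuclei were kept, with medians of 1570 and 1850 UMIs, and 11 barcodes were shared by both libraries. Clusters were called smooth muscle-like and so on from marker lists, and 4 clusters were smooth muscle-like, each with all 10 markers at least 3-fold over the median cluster. They are named by a leading gene: Colec10 (with Nek10, Actn2 and Pln, 648 nuclei), Fgf7 (with Igfbp2 and Postn, 349), Ctla2a (with Fbn2 and Chrdl2, 197) and Hs3st4 (with Grin3a, 164). A cluster of 62 nuclei led by Gm12930 and Slurp1 stayed unnamed. Interstitial cells of Cajal, neurons, glia, macrophages, mesothelial and epithelial nuclei are likewise names given by markers. Levels are UMIs per 10000 over both libraries, with exact Poisson intervals that cover counting error only. The libraries filled the clusters unequally, so an order of summed levels need not hold within each library. The genes were part of what was clustered, so the levels are a description. Nuclear RNA includes unspliced transcripts, whose introns can add UMIs in long genes, so levels are compared between cell types and not between genes.

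Cacna1c was highest in smooth muscle-like nuclei, at 66.5 UMIs per 10000 in the Ctla2a cluster (95% interval 64.8 to 68.3). It had 57.4 in Colec10, 48.4 in Fgf7 and 40.4 in Hs3st4, each summed level clear of the next by its interval. Interstitial cells of Cajal, the pacemaker cells of the gut, had 27.7. In KO the order of Colec10 (44.5) and Fgf7 (47.1) was the other way round, against 61.0 and 50.2 in WT. The Ctla2a cluster also carried markers of mural (vessel wall) cells, with 4 of 7 at least 3-fold over the median cluster. These summed to 11.7 UMIs per 10000 there, against 3.93 to 8.04 in the other smooth muscle-like clusters. The part of such cells in its Cacna1c level was not tested. Smooth muscle-like nuclei held 75.9% of all 27983 Cacna1c UMIs, beside 30.5% of the UMIs of all genes. A Cacna1c UMI was present in 95.7% of smooth muscle-like nuclei (median 1946 UMIs) and in 15.2% of epithelial nuclei (median 1253 UMIs), which serve as background because they should lack it. With every nucleus thinned to 500 UMIs these shares were 86.7% and 8.4%.

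Cacnb2 ran beside Cacna1c. It had 46.7 UMIs per 10000 in the Hs3st4 cluster, 43.9 in Colec10, 40.2 in Ctla2a and 37.5 in Fgf7, then 23.7 in interstitial cells of Cajal and 17.3 in the Nos1 cluster of enteric neurons, against 3.93 in epithelial nuclei. The other neuron cluster, led by Tafa1, had 4.91. Mesothelial nuclei, from the cells of the serosal surface, had 11.05. Within single libraries the muscle order was another. In WT Cacnb2 stood at 52.1 in Ctla2a, 48.5 in Hs3st4 and 46.4 in Colec10. In KO it stood at 39.7 in Hs3st4, and Ctla2a and Colec10 were close at 35.1 and 34.7.

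Cacna1d had its highest level outside muscle. Interstitial cells of Cajal had 21.2 UMIs per 10000 (95% interval 19.3 to 23.1), the Hs3st4 smooth muscle-like cluster 10.1, fibroblast-like nuclei 7.88 and macrophages 5.35. The other 3 smooth muscle-like clusters had 2.18 to 4.68, and epithelial nuclei 0.68. In WT fibroblast-like nuclei (11.2) stood above the Hs3st4 cluster (9.45), and in KO below it (6.04 and 12.9). The Hs3st4 cluster also carried markers of interstitial cells of Cajal, with 3 of 7 at least 3-fold over the median cluster. These markers summed to 21.3 UMIs per 10000 there, against 1.18 to 6.43 in the other smooth muscle-like clusters. The part of such cells or of doublets in its Cacna1d level was not tested. A Cacna1d UMI was in 83.2% of interstitial cell of Cajal nuclei, and in 57.0% after thinning, against 6.6% and 2.0% of epithelial nuclei. Median depths were 1689 and 1253 UMIs. Smooth muscle-like nuclei held 37.9% of Cacna1d UMIs (and 30.5% of the UMIs of all genes) and enteric neurons 18.5% (15.8%). Fibroblast-like nuclei held 14.8% (5.71%) and interstitial cells of Cajal 13.001% (1.87%). The bulk markers of these cell types differed between tissues in both directions beside Cacna1d. Neuron markers were higher in WT colon than in WT jejunum in 10 of 10 cases, with sums of 756 to 1271 CPM against 589 to 725, and in 10 of 10 in KO. Fibroblast markers were higher in 6 of 8 in WT (3454 to 5782 CPM against 2888 to 3478) and in 6 of 8 in KO. Smooth muscle markers were higher in 7 of 10 in WT and in 1 of 10 in KO. Markers of interstitial cells of Cajal were lower in 6 of 7 in WT (526 to 655 CPM against 986 to 1096) and in 7 of 7 in KO. The part of cell content in the tissue difference was not tested.

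Cacna1e was concentrated in 1 muscle cluster. The Colec10 cluster had 23.8 UMIs per 10000 (95% interval 23.1 to 24.5), the Tafa1 neurons 10.7 and the other smooth muscle-like clusters 4.30 to 6.503. Nos1 neurons had 0.82, below the epithelial background of 1.05. Cacna2d3 shared the Colec10 cluster as its highest, at 9.98, with 5.89 in Fgf7, 4.80 in Hs3st4 and 1.82 in Ctla2a, and 0.52 in enteric neurons. In WT its level was higher in Hs3st4 (5.40) than in Fgf7 (4.60), and in KO lower (2.44 and 6.74). Smooth muscle-like nuclei held 71.8% of Cacna1e UMIs and 81.7% of Cacna2d3 UMIs, beside 30.5% of the UMIs of all genes.

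Cacna2d1 stood above the epithelial level in muscle, fibroblast-like and neuron clusters. It had 29.5 UMIs per 10000 in the Hs3st4 cluster, 17.8 in fibroblast-like nuclei and 14.0 to 17.0 in the other smooth muscle-like clusters. The neuron clusters had 13.8 and 15.3, against 2.01 in epithelial nuclei. Within single libraries the place of fibroblast-like nuclei was another. In WT their level (11.7) was below every smooth muscle-like cluster (14.1 to 32.3) and each neuron cluster (13.6 and 14.97). In KO it was above all of these, at 21.2 against 18.2 in the Hs3st4 cluster, the next highest of them. Cacna2d1 had a UMI in 94.8% of enteric neurons, which were deep (median 6793 UMIs), and in 48.3% after thinning. These shares were 84.1% and 52.7% in smooth muscle-like nuclei and 12.01% and 5.2% in epithelial nuclei.

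The T-type pores had their highest levels in different cell types. Fibroblast-like nuclei held 102 of the 154 Cacna1g UMIs (66.2%, beside 5.71% of the UMIs of all genes). Their level was 1.43 UMIs per 10000 (95% interval 1.17 to 1.74). Smooth muscle-like nuclei had 0.02, from 8 UMIs in 1358 nuclei, below the epithelial 0.06. Cacna1h had 1.33 in smooth muscle-like nuclei, 1.26 in enteric glia and 0.76 in enteric neurons, against 0.36 in epithelial nuclei and 0.15 in fibroblast-like nuclei. Cacnb3 had 226 UMIs in all and 0.22 in smooth muscle-like nuclei, against 0.24 in epithelial nuclei, so its nuclear signal did not exceed the background.

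**Figure D3:**
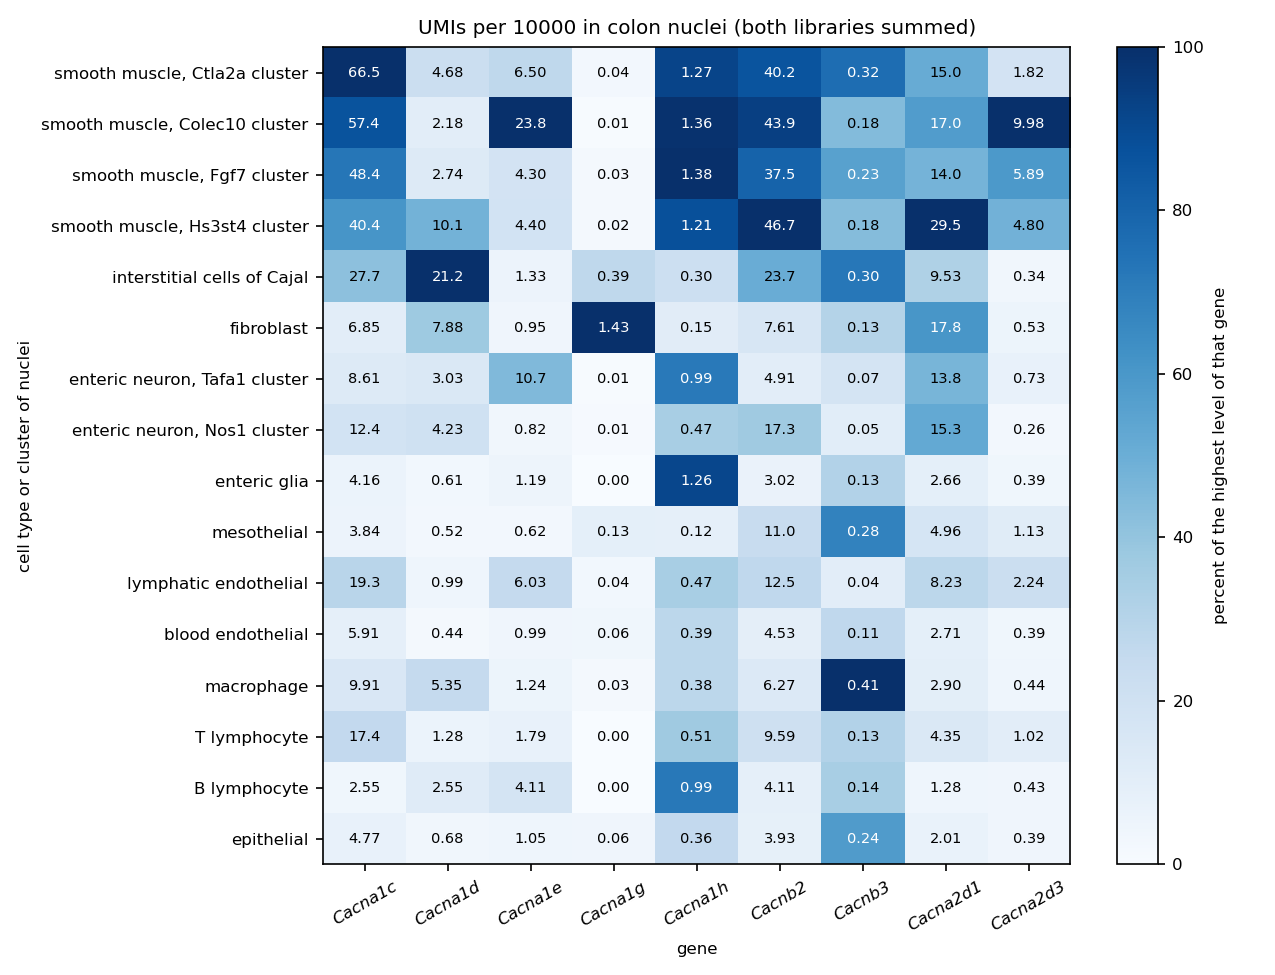
UMIs per 10000 of the 9 genes (columns) in cell types and clusters of colon nuclei (rows), both libraries summed, with each gene's colour as percent of its highest level among the rows shown. Cacna1c and Cacnb2 share the smooth muscle rows, Cacna1d is darkest in interstitial cells of Cajal and Cacna1g in fibroblast-like nuclei.

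The nuclei gave 1 library per genotype, so the ratios of KO to WT have no replicate check and no test, and their intervals cover counting error only. In all smooth muscle-like nuclei the Cacna1c ratio was 0.93 (interval 0.90 to 0.95), from 57.5 to 53.3 UMIs per 10000. The ratio was 0.73 for Cacnb2, 0.75 for Cacna2d1, 0.51 for Cacna1e and 0.58 for Cacna2d3, with 0.91 for Cacna1d and 0.93 for Cacna1h. Of the 7 members with at least 100 UMIs, 2 lay past 1.5-fold, as did 20.7% of the 5209 genes with that many UMIs. The libraries filled the class differently: 503 of 921 WT nuclei were in the Colec10 cluster, and of 437 KO nuclei 145 were in Colec10, 145 in Fgf7 and 115 in Ctla2a.

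Within single clusters the ratios were not the same. In the Colec10 cluster Cacna1c went from 61.0 to 44.5 UMIs per 10000 (ratio 0.73), Cacna1e from 25.2 to 19.0 (0.75) and Cacna2d3 from 10.6 to 7.62 (0.72). In the Ctla2a cluster Cacna1c had a ratio of 0.97 (interval 0.91 to 1.02), in Fgf7 0.94 (0.88 to 1.01) and in Hs3st4 0.90 (0.79 to 1.01), so that the interval was clear of 1 in the Colec10 cluster alone (0.69 to 0.77). Cacna1d had 0.49 in the Fgf7 cluster (0.37 to 0.67) and 1.36 in Hs3st4 (1.09 to 1.69). The latter cluster also carried markers of interstitial cells of Cajal. In Ctla2a Cacna1d had 0.79 and in Colec10 0.90, beside 0.91 over the class. Cacnb2 was below 1 in all 4 clusters, at 0.67 to 0.82. In the Fgf7 cluster Cacna1e and Cacna2d3 were above 1, at 2.15 and 1.47, where median depth was 841 UMIs in WT and 1775 in KO. In the Hs3st4 cluster Cacna2d1 went from 32.3 to 18.2 (ratio 0.56), and Cacna1e had 193 UMIs in 132 WT nuclei and 3 in 32 KO nuclei (5.43 and 0.33 per 10000, ratio 0.061, interval 0.013 to 0.18). Past 1.5-fold lay 23.0% of genes in the Ctla2a, 18.2% in the Colec10, 27.1% in the Fgf7 and 30.6% in the Hs3st4 cluster.

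Levels in nuclei that should lack these genes differed between the libraries. Whether the UMIs there came from free RNA, doublets or low expression was not tested. In epithelial nuclei Cacna1c stood at 5.98 UMIs per 10000 in WT and 1.60 in KO, Cacnb2 at 4.94 and 1.27, Cacna2d1 at 2.36 and 1.09 and Cacna1e at 1.28 and 0.44. In the shallowest glial cluster, led by Slc18a2, Cacna1e stood at 5.17 in WT and 0.43 in KO, close to its levels in the Hs3st4 cluster. The part of this background in the ratios was not tested. Outside muscle, Cacna2d1 had a ratio of 1.80 in fibroblast-like nuclei (11.7 to 21.2). Cacna1d had 0.98 in interstitial cells of Cajal (21.3 and 21 UMIs per 10000) and 0.83 in enteric neurons (interval 0.71 to 0.97). It had 0.54 in fibroblast-like nuclei (0.45 to 0.64) and 2.01 in macrophages (1.33 to 3.14, from 27 UMIs in WT and 154 in KO).

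**Figure D4:**
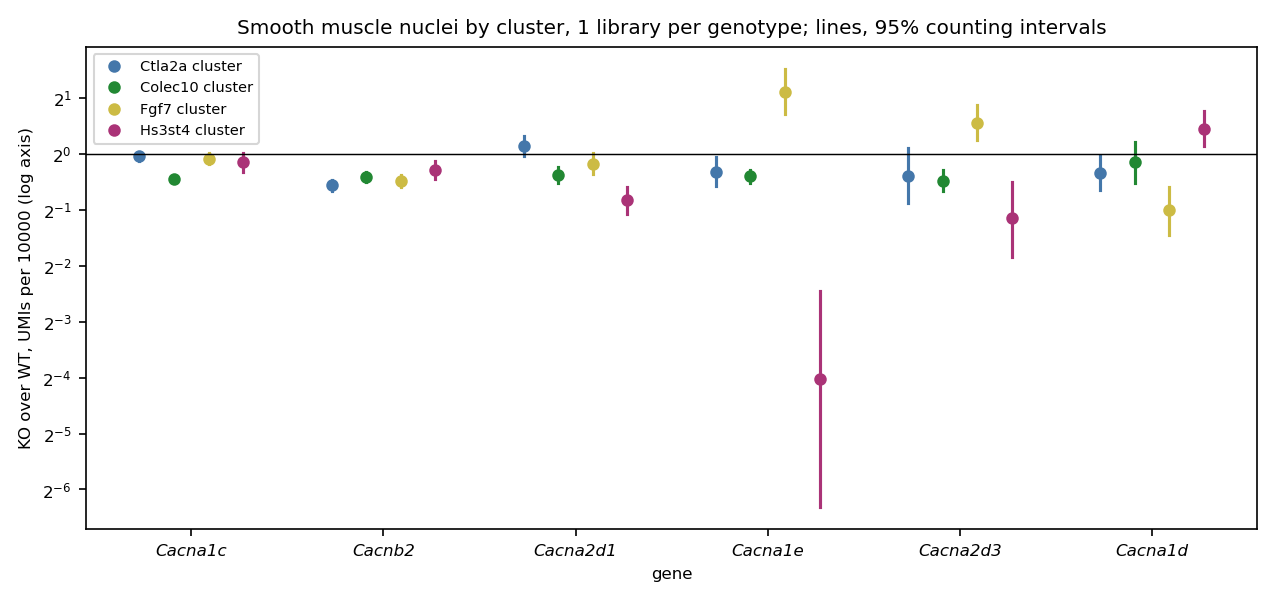
Ratio of KO to WT (UMIs per 10000, log axis) for 6 of the genes in each smooth muscle-like cluster, 1 library per genotype, with 95% counting intervals. Cacna1c and Cacnb2 lie below 1 in all 4 clusters, and Cacna1d, Cacna1e, Cacna2d1 and Cacna2d3 lie on both sides.

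Accessible regions were listed separately in each library, 35003 in WT and 26493 in KO, so a region listed in 1 library shows no change between them. Within 2000 bp of the 9 genes, WT listed 26 regions and KO 24, with none at Cacna1h in either. Regions over an annotated start site were listed in WT at Cacnb2 (chr2:14603789-14604656 and chr2:14604800-14605577), Cacnb3 (chr15:98634066-98635064) and Cacna1g (chr11:94474037-94474894), and at none in KO. Of these chr2:14603789-14604656 and chr15:98634066-98635064 cover the Cacnb2 and Cacnb3 stretches printed above. At this Cacnb2 region 41 of 85 counts came from smooth muscle-like nuclei, and at Cacnb3 38 of 106. Such shares depend on how many counts each cell type gave. Scaled per 10000 counts, smooth muscle-like nuclei had 0.56 at Cacnb2, below interstitial cells of Cajal at 0.71 (from 4 counts). At Cacnb3 they had 0.52, below interstitial cells of Cajal at 1.24, fibroblast-like nuclei at 1.16 and mesothelial nuclei at 0.57. The other cell types compared were lower at both regions. Cacna1c had no listed region over a start site. Its region with the most counts lay inside the gene, 20827 (WT) and 20751 bases (KO) downstream of the nearest start. It was listed at chr6:119174914-119175894 in WT (44 of 137 counts from smooth muscle-like nuclei) and chr6:119175009-119175952 in KO (52 of 110). Scaled in the same way, smooth muscle-like nuclei had 0.60 in WT, below enteric glia at 0.70 and enteric neurons at 0.68. In KO they had 1.27, the highest of the cell types compared, followed by mesothelial nuclei at 1.14. Differences between cell types in these regions were not tested. Cacna1d had a region at chr14:30479147-30480067 in WT (196 counts) and chr14:30478898-30480295 in KO (117).

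The wider channel family was compared from fixed lists. Of 17 other voltage-gated channel subunit genes, 15 were tested and 0 passed in either genotype comparison (1 in each with an unadjusted p below 0.05, beside 14.5% of all genes in colon and 13.2% in jejunum). The smallest p values in colon were those of Cacng2 (log2 difference -1.62, edgeR adjusted p = 0.247) and Cacna1f (-2.04, adjusted p = 0.352). In jejunum they were those of Cacna1a, a neuronal P/Q-type pore (-1.23, edgeR adjusted p = 0.152, and 0.0212 with DESeq2), and Cacng5 (-1.12, adjusted p = 0.452). The median log2 difference of the 15 was -0.07 in colon and -0.28 in jejunum. In nuclei the most abundant were Cacna1a, Cacna1b and Cacnb4. Cacna1a and Cacna1b had 6.82 and 6.24 UMIs per 10000 in enteric neurons against 0.55 and 0.03 in smooth muscle-like nuclei, and Cacnb4 had 5.07 in interstitial cells of Cajal.

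Of 25 regulators that bind the channel complex, 0 passed between genotypes (of the 25, 7 in colon and 4 in jejunum with an unadjusted p below 0.05, beside 14.5% and 13.2% of all genes), with medians of -0.16 and -0.13. The smallest p values were those of the calcineurin subunit Ppp3cb (-0.71, edgeR adjusted p = 0.063) and the calmodulin gene Calm2 (-1.11, adjusted p = 0.144) in colon, and of Ahnak (0.61, adjusted p = 0.255) and Ppp3cb (-0.39, adjusted p = 0.262) in jejunum. DESeq2 called Ppp3cb (adjusted p = 0.000297) and Calm2 (0.0216) in colon and Ahnak (0.0155) in jejunum. Between WT tissues, where 1.56% of all genes were called, 3 of the 25 were, all higher in colon: Stac, an adaptor that slows the inactivation of L-type channels (log2 difference 2.22, SE 0.40, edgeR adjusted p = 0.0216), Rrad, a small G protein that inhibits them (1.71, SE 0.32, adjusted p = 0.0269), and the calmodulin kinase Camk2g (0.91, SE 0.19, adjusted p = 0.0428). In KO tissues (1.29% of all genes called) 1 of the 25 was called: Cabp1, a calcium-binding relative of calmodulin, was higher in colon (1.43, SE 0.31, edgeR adjusted p = 0.0489). Over 18 alternatives Stac kept its call in 12, Rrad in 12, Camk2g in 6 and Cabp1 in 5, with no change of direction. In nuclei the most abundant regulator was Prkg1, the cGMP-dependent kinase, at 52.9 UMIs per 10000 in smooth muscle-like nuclei and 70.7 in interstitial cells of Cajal, followed by Ppp3ca and Camk2d.

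Of 15 other calcium entry channel genes, 0 passed between genotypes (of the 15, 3 in colon and 2 in jejunum with an unadjusted p below 0.05, beside 14.5% and 13.2% of all genes). Among the smallest p values were those of P2rx5 in colon (-1.37, edgeR adjusted p = 0.177), and of P2rx4 (0.89, adjusted p = 0.0606) and P2rx5 (2.04, adjusted p = 0.0883) in jejunum. DESeq2 called all 3 of these (adjusted p = 0.0296, 0.000202 and 0.000421). Between WT tissues (1.56% of all genes called) 2 of the 15 were higher in colon, the ATP-gated channels P2rx5 (2.79, SE 0.44, edgeR adjusted p = 0.0124) and P2rx4 (0.85, SE 0.16, adjusted p = 0.0296), and the receptor-operated channel Trpc6 was lower (-1.999, SE 0.31, adjusted p = 0.0116). In KO tissues Trpc6 was again lower in colon (-1.81, edgeR adjusted p = 0.0227) and Stim2, a calcium store sensor, was higher (0.83, adjusted p = 0.0344). Trpc6 kept its call in 17 of 18 alternatives in WT and in 13 in KO. Of the others P2rx5 kept it in 14, P2rx4 in 7 and Stim2 in 7. In nuclei the most abundant genes of this list were Trpm7, Stim1 and Stim2. The 10 contractile genes were lower in KO colon in 10 of 10 cases with 0 called (median log2 difference -0.72, 4 with an unadjusted p below 0.05, beside 14.5% of all genes), led by Mylk (-1.23, edgeR adjusted p = 0.115) and Myl9 (-1.16, adjusted p = 0.124), both called by DESeq2 (adjusted p = 0.00147 and 0.00654), beside Cacna1c at 0.17. All of the contractile genes but Myl9 are also among the smooth muscle markers given with Cacna2d1, so the lists are not separate results. In jejunum the median of the contractile genes was 0.14 (6 positive and 4 negative values). The smallest p values there were those of Mylk (-0.98, edgeR adjusted p = 0.197, and 0.0228 with DESeq2) and Cnn1 (1.07, adjusted p = 0.278).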

How the data were processed

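Bulk libraries: the authors deposited raw counts per Ensembl gene. The submitters' processing notes name STAR 2.0.4b, featureCounts 1.4.5 (Subread), edgeR and Cell Ranger with GRCm38 and mm10, without saying which step used which. Of 40757 rows, 276 repeated an identifier with identical values and were dropped. Counts were tested with edgeR 4.0.16 (R 4.3.3): filterByExpr (20886 genes), TMM, 1 robust quasi-likelihood fit to all 12 libraries, two-sided, Benjamini-Hochberg over all genes, threshold 0.05. Standard errors were obtained as |log2 fold change| / square root of F. The code was tested on simulated data. No pair of replicates was as alike as repeat counts of 1 library would be (smallest chi-square per gene 51.7).

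Nuclei: the authors deposited matrices of counts of genes and accessible regions per barcode, made with cellranger-arc per the file headers. Gene values were all even and were halved, and the result is called UMIs, an inference from the values. Nuclei with 300 to 8000 genes and under 5% mitochondrial UMIs were kept and clustered with scanpy 1.11.5 (2000 variable genes, 30 components, resolution 1). The doublet caller marked 1 WT and 2 KO nuclei, too few to have worked, so doublets remain. A cluster was named from at least 3 markers at 3-fold over the median cluster. Of 32158 gene identifiers, 99.9% overlapped their GENCODE M21 (GRCm38) gene.

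The members, gene lists and tests were chosen with earlier results of these data known. Named genes were the 9 members, the 3 genes most like each, and from each list those past the threshold (otherwise the 2 with the smallest p) and the 3 with most UMIs. 1 gene of the list of other calcium entry channels is not reported here. Alternatives were RLE size factors, no filter, DESeq2 1.42.0, limma voom, only the libraries compared, a replicate block and each library left out. For nuclei they were 2 other resolutions, a filter of 200 genes, doublets kept and thinning to 500 UMIs. The KO tissue comparison, single clusters and alternatives for the list genes were added after seeing the data.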

Additional observations from a re-analysis of the deposited data

Results flagged for a closer look

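In nuclei, 5 genes had a ratio of KO to WT below 1 in smooth muscle-like nuclei and above 1 in another cell type. Both counting intervals were clear of 1. The search covered 9 other cell types, and 7 members had enough UMIs for it. Of 3867 genes with at least 100 UMIs in smooth muscle-like nuclei and in another cell type, 243 (6.28%) met the same condition. Of the 850 of these with an interval below 1 in smooth muscle-like nuclei, 28.6% met it, beside 5 of 5 members. A gene with many UMIs, and so a narrow interval, meets it more readily. With 1 library per genotype the difference between cell types was not tested. Cacna1c had 0.93 in smooth muscle-like and 1.42 in mesothelial nuclei, where its level was 3.08 UMIs per 10000 in WT and 4.38 in KO, beside an epithelial background of 5.98 in WT and 1.60 in KO. Cacna1e had 0.51 in smooth muscle-like nuclei and 1.39 in enteric neurons, and Cacna2d3 had 0.58 and 1.82 in the same cell types. The latter rests on 44 and 58 UMIs, at 0.39 and 0.70 UMIs per 10000 beside an epithelial background of 0.47 and 0.18. Cacnb2 had 0.73 in smooth muscle-like nuclei and 1.39 in interstitial cells of Cajal (20.3 to 28.1 UMIs per 10000). Cacna2d1 had 0.75 in smooth muscle-like and 1.80 in fibroblast-like nuclei.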

How the results depend on the processing

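The genotype comparisons called 0 members under each alternative but DESeq2, which called 1 in colon (Cacna2d1). For WT colon minus WT jejunum the count of 1 became 2 under DESeq2 and 3 in a fit of only the libraries compared, and ranged from 0 to 1 over left-out libraries (0 without WT jejunum t1). For KO colon minus KO jejunum it became 0 in a fit of only the libraries compared. Replicate tags shared by the tissues did not pair the libraries (correlations of same-tag deviations from -0.26 to 0.12). With the tag as a replicate block the count was 0 in the WT and 0 in the KO tissue comparison (Cacna1d 1.37, adjusted p = 0.0989, and 1.80, adjusted p = 0.291). The block reversed the sign of values to -0.0526 (Cacna1h), 0.123 (Cacnb2) and -0.0177 (Cacnb3) in the difference between tissues' changes, and to -0.00784 in WT and -0.0255 in KO for Cacnb3 in the tissue comparisons.

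Other values changed sign as follows, none of them past the threshold. Without a filter Cacna1e in colon was 0.00156, and in the WT tissue comparison Cacna1c was -0.00502 and Cacnb3 -0.0541. Cacnb3 was also -0.0147 with RLE size factors, -0.0149 with DESeq2, -0.00524 with limma voom and -0.0121 in a fit of only the libraries compared, and Cacnb2 in the difference was 0.0231 with limma voom. Over left-out libraries the colon KO minus WT values ran from -0.0147 to 0.41 (Cacna1c), -0.40 to 0.39 (Cacna1e), -0.26 to 0.51 (Cacna1g), -0.35 to 0.13 (Cacna1h), -0.26 to 0.0358 (Cacnb3) and -0.24 to 0.62 (Cacna2d3). The difference between tissues' changes ran from -0.15 to 0.28 (Cacna1c), -0.0727 to 0.40 (Cacna1h) and -0.33 to 0.23 (Cacnb2). WT colon minus WT jejunum ran from -0.23 to 0.19 (Cacna1c), -0.0511 to 0.42 (Cacna1h), -0.18 to 0.0846 (Cacnb3) and -0.0608 to 0.14 (Cacna2d1). KO colon minus KO jejunum ran from -0.0842 to 0.27 (Cacna1c), -0.00713 to 0.33 (Cacnb3) and -0.75 to 0.11 (Cacna2d3).

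The Cacna1c ratio in smooth muscle-like nuclei, 0.93, was 0.76 at the lower and 0.96 at the higher clustering resolution, where 653 WT and 178 KO, and 803 WT and 378 KO, nuclei were called smooth muscle-like. It was 0.84 after thinning, and 0.97 in the Ctla2a, 0.73 in the Colec10 and 0.90 in the Hs3st4 cluster alone. The point values were below 1 in each of these, with intervals that include 1 in the Ctla2a (0.91 to 1.02) and Hs3st4 (0.79 to 1.01) clusters. With 3 libraries a group, and 1 per genotype for nuclei, the number of libraries limits the precision.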
